A study of Felis catus with 15 samples.

Results

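Transcript levels in pieces of cat corpus epididymis that had been cultured with extracellular vesicles were compared with those of uncultured corpus. The comparison used 10 of the 15 RNA-seq libraries of the series, 5 labelled as fresh tissue and 5 labelled as culture with vesicles. Differences between a vesicle culture and the fresh library with the same replicate number are given beside it. The main test compared the groups without this pairing, and fold changes and p-values are from it unless said otherwise. A paired fit, with the replicate number as a block, is given where it changes a result. Such vesicles are membrane-enclosed carriers that cells shed, and these came from the caput, which lies upstream of the corpus. A further 5 libraries of explants cultured without vesicles served for the direct test of what the vesicles added. All animals were domestic cats (Felis catus). Strain, age, genotype, vesicle dose and medium are not stated in the labels. The labels mark fresh tissue D0 and the cultures D3 without saying what these marks stand for. Fresh tissue and vesicle culture therefore differ in culture and in vesicles at the same time. It is not stated either whether replicates are separate animals, so the spread behind each p-value may be technical.

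The epididymis is the coiled duct in which sperm mature after they leave the testis. Its principal cells take up testicular fluid, acidify it together with clear cells and secrete the proteins that coat sperm, while basal cells lie against the basement membrane. The corpus is the middle region, and its secretory program is kept up by androgens and by factors that arrive in the lumen from upstream.

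Total counts were 17751507 to 24841100 in the fresh libraries and 17308832 to 27420218 in the vesicle cultures. Levels are given as CPM (counts scaled to a common effective library size), which allows a gene to be compared between libraries but not with another gene of different length. The correlation of log2 CPM across genes was 0.941 to 0.974 among vesicle cultures, 0.952 to 0.969 among fresh libraries and 0.772 to 0.838 for a vesicle culture with a fresh library. Counts on the 13 mitochondrial genes made up 10.1% ± 1.26 (SD, n = 5) of fresh libraries and 6.84% ± 0.388 (SD, n = 5) of vesicle cultures. Among the 10 libraries, fresh 4 had the highest levels of immediate early, heat shock and cytokine genes of its group, and vesicle culture 2 had the highest fibroblast and smooth muscle markers. In the culture without vesicles, library 3 stood apart, with 0.179% mitochondrial counts. It shares the fit and is in neither group of the main comparison. It is among the 5 libraries of culture alone in the direct test of the vesicles. The epithelial gene EPCAM was read at 467 to 634 CPM in fresh tissue and 289 to 577 CPM in vesicle culture. The epididymal genes CRISP1 and NPC2 were present in every library. Their presence goes with epididymal epithelium but cannot check the region or the treatment given in the labels.

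More of the transcriptome differed than not. Of 18038 genes tested, 9549 (52.9%) passed an adjusted p of 0.05 in edgeR's quasi-likelihood test, 4950 higher (27.4%) and 4599 lower (25.5%) in vesicle culture. The change was over 2-fold for 3242 of the higher and 3173 of the lower genes, and over 16-fold for 448 and 366. Of those called, 9237 had the same sign in 5 of 5 same-numbered pairs. The paired fit of these 10 libraries called more genes, 11656 of 17493 tested. The 5 fresh and 5 vesicle values of a gene did not overlap for 49.3% of all genes tested, and the median log2 fold change over all genes was 0.01. Counts of list members are to be read against these shares. Since the tissue is a mixture, fewer cells of a type and less RNA per cell cannot be told apart in any of the results that follow.

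Transcripts for the secreted proteins of the duct fell, with CLU as the large exception. Of 53 genes listed for epididymal secretory and sperm-coating proteins, 40 matched the table and 32 passed the filter on low counts, of which 26 were lower and 4 higher in vesicle culture, with a median log2 fold change of -3.83. The list as a whole went from 4.40 to 5.70% of the counts in fresh tissue to 2.02 to 3.98% in vesicle culture. Without CLU the other 31 genes held 4.62% ± 0.585 (SD, n = 5) of the counts in fresh tissue and 0.411% ± 0.0718 (SD, n = 5) in vesicle culture. CLU, which encodes the extracellular chaperone clusterin, went the other way, from 0.258% ± 0.183 (SD, n = 5) to 2.38% ± 0.771 (SD, n = 5). Most of what remained of the list's counts in vesicle culture was therefore CLU.

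**Figure D1:**
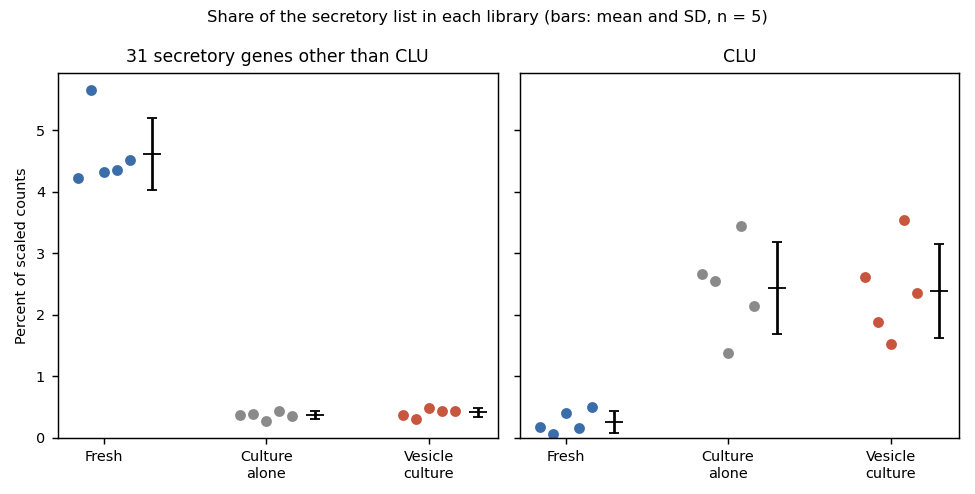
Percent of scaled counts held by the secretory list in each of the 15 libraries (1 point each, with mean and SD), without CLU on the left and for CLU on the right. The 31 other genes sit between 4.23 and 5.64% in fresh tissue and between 0.309 and 0.491% in vesicle culture, while CLU rises to between 1.53 and 3.54%.

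NPC2, the secreted cholesterol-binding protein of the epididymal lumen, was read at 8520, 12600, 9800, 10200 and 10300 CPM in fresh libraries 1 to 5 and at 515, 283, 480, 285 and 367 CPM in vesicle cultures 1 to 5. Its groups were far from overlapping, and the log2 fold change was -4.74 (SE 0.25, adjusted p 4.71e-09). CRISP1, a cysteine-rich protein that binds to the sperm surface, fell less, from 7010 to 9610 CPM in fresh tissue to 1770 to 3100 CPM in vesicle culture (-1.85, SE 0.31, adjusted p 0.000138).

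RNASE11, one of the catalytically unusual ribonucleases of the epididymis, was read at 7970, 11400, 6550, 7280 and 6060 CPM in the fresh libraries and at 27.9, 13.2, 17.7, 8.97 and 27.2 CPM in the vesicle cultures. All vesicle cultures were thus far below all fresh libraries (log2 fold change -8.69, SE 0.53, adjusted p 1.05e-08). RNASE12 followed the same course, from 652 to 907 CPM to 0.236 to 6.42 CPM (-7.87, SE 0.84). RNASE10 fell from 62.0 to 74.6 CPM to 3.94 to 6.26 CPM (-3.78, SE 0.21).

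PATE3, a small sperm-associated protein of the Ly6 type, went from 1570, 1700, 908, 1540 and 964 CPM to 7.03, 4.12, 2.99, 0.472 and 6.54 CPM. Vesicle culture 4 was the lowest, also of RNASE12 and RNASE11 (PATE3 log2 fold change -8.30, SE 0.96, adjusted p 4.33e-06). WFDC9, a whey-acidic-protein domain gene, fell from 713 to 1840 CPM to 1.65 to 8.74 CPM (-7.79, SE 0.57). SPINK14, a Kazal-type protease inhibitor gene, had 74.9 to 273 CPM in fresh tissue and only 3 counts in all vesicle cultures together, a ratio of 4610 with a 95% counting interval of 1580 to 22300. Its fitted log2 fold change went from -11.97 to -14.43 without vesicle culture 3, which held those counts.

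GPX5, the epididymal glutathione peroxidase, varied widely in fresh tissue, at 4.70, 13.9, 118, 26.7 and 42.0 CPM. In vesicle culture it was read at 0.535, 0.651, 5.42, 0.551 and 6.54 CPM, so that fresh 1 was below vesicle cultures 3 and 5. Within every pair the vesicle culture was lower (log2 fold change -3.92, SE 0.99, adjusted p 0.00352). Without fresh 3 the value was -3.00, and without vesicle culture 5 it was -4.53.

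Higher in vesicle culture were CLU, MFGE8 and WFDC2, together with GGT1. CLU was read at 1730, 548, 3970, 1650 and 4980 CPM in fresh tissue and at 26100, 18800, 15300, 35400 and 23600 CPM in vesicle culture (log2 fold change 3.21, SE 0.49, adjusted p 6.16e-05). MFGE8, a milk-fat-globule protein that coats vesicles and apoptotic cells, rose from 51.1 to 118 CPM to 215 to 334 CPM (1.75, SE 0.25). WFDC2, which encodes the protease inhibitor HE4, rose from 3.56 to 8.38 CPM to 14.9 to 37.2 CPM (2.29, SE 0.34). Members of the RNASE, PATE, WFDC, SPINK and S100 families have similar copies, and the handling of reads that fit more than 1 of them is not stated, so their values carry that uncertainty.

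Further falls outside the fixed lists were as steep. SLC26A7, an anion exchanger gene, was read at 276, 100, 233, 179 and 212 CPM in fresh tissue and at 1.57, 0.174, 1.09, 0.315 and 0.789 CPM in vesicle culture (log2 fold change -7.96, SE 0.67, adjusted p 1.72e-07). DHRS2, a short-chain dehydrogenase gene, fell from 17.3 to 33.9 CPM to at most 0.275 CPM (-7.40, SE 0.71). CLPSL2, a colipase-like gene, fell from 30.0 to 36.7 CPM to at most 0.178 CPM (-9.05, SE 0.65), and without vesicle culture 1 the fitted value was -10.25.

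**Figure D2:**
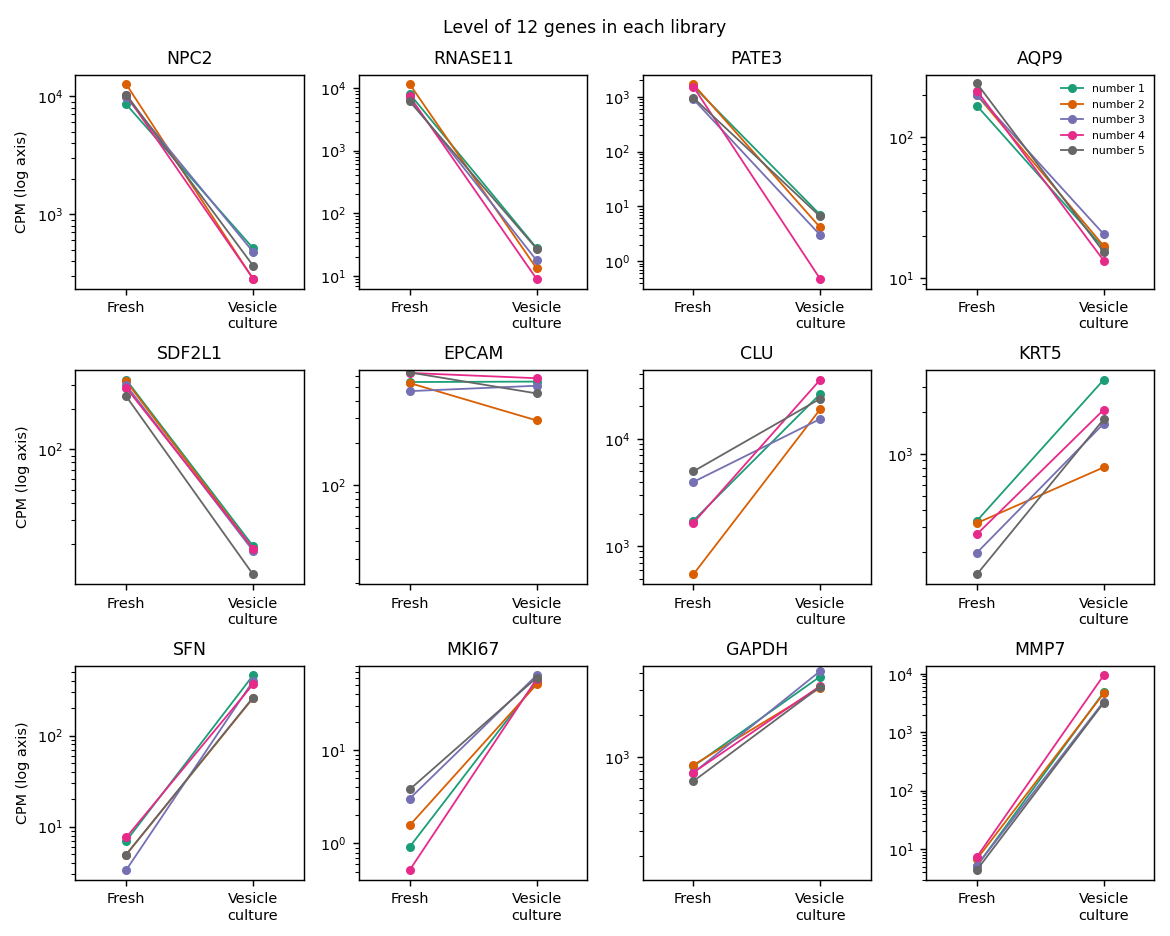
CPM of 12 genes (log axes, 1 panel per gene) in the fresh library and the vesicle culture of each replicate number, joined by lines. NPC2, RNASE11, PATE3, AQP9 and SDF2L1 fall in all 5 pairs, CLU, KRT5, SFN, MKI67, GAPDH and MMP7 rise in all 5, and EPCAM overlaps between 467 to 634 and 289 to 577 CPM.

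Markers of principal cells mostly fell, while those of clear cells had no common direction. Of 19 principal cell markers tested, 13 were lower and 3 higher, with a median of -1.67. MME, the apical peptidase neprilysin, was read at 277, 279, 252, 279 and 323 CPM in fresh tissue and at 8.42, 11.1, 6.76, 6.06 and 15.2 CPM in vesicle culture. That separation was the clearest of the list by fold among those named (log2 fold change -4.89, SE 0.39, adjusted p 1.11e-07). AQP9, the water and solute channel of the apical membrane, fell from 168 to 242 CPM to 13.3 to 20.5 CPM (-3.64, SE 0.26). SLC26A3, a chloride-bicarbonate exchanger, fell from 67.7 to 90.0 CPM to 3.21 to 7.24 CPM (-4.13, SE 0.38), and the gap junction gene GJB1 from 150 to 197 CPM to 8.42 to 22.4 CPM (-3.49, SE 0.26).

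CFTR, the apical chloride and bicarbonate channel, rose from 13.8 to 16.3 CPM to 37.0 to 60.1 CPM (1.79, SE 0.20). CA12, a membrane carbonic anhydrase, rose from 467 to 870 CPM to 831 to 2080 CPM (1.22, SE 0.29), with overlapping groups.

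Of 19 tested genes known to respond to androgens, 8 were higher and 4 lower, with a median of 0.48. FKBP5, a chaperone of steroid receptors, fell from 170 to 232 CPM to 66.9 to 119 CPM (-0.97, SE 0.17), and the transcription factor ZBTB16 from 16.6 to 20.2 CPM to 2.93 to 6.53 CPM (-2.03, SE 0.32). SLC45A3, a prostate-type transporter gene, rose from 0.562 to 1.08 CPM to 9.13 to 14.0 CPM (3.85, SE 0.26). ACSL3, a fatty acid activating enzyme, rose from 64.6 to 110 CPM to 202 to 268 CPM (1.56, SE 0.16). The list thus held large changes both ways.

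Among 13 clear cell markers, 3 were higher and 2 lower, with a median of -0.07, and their summed level went from 240 to 431 CPM in fresh tissue to 123 to 225 CPM in vesicle culture. ATP6V1C2, a proton pump subunit, carried most of that sum in fresh tissue. It fell from 203 to 420 CPM to 28.2 to 72.4 CPM (-2.81, SE 0.34, adjusted p 6.56e-06), so the lower sum does not speak for the list. CA2, the cytosolic carbonic anhydrase, rose from 0.527, 1.57, 1.14, 1.15 and 1.91 CPM to 34.1, 15.8, 23.7, 56.2 and 27.9 CPM (4.64, SE 0.54). SLC26A4, the anion exchanger pendrin, rose from 2.24 to 16.5 CPM to 20.4 to 87.8 CPM (2.43, SE 0.53). ATP6V1B1, the pump's B1 subunit, had 0.439 to 7.94 CPM in fresh tissue and 0.217 to 2.09 CPM in vesicle culture (-1.92, adjusted p 0.0424), a call lost when any of several libraries was left out, with adjusted p up to 0.114 without fresh 5.

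Of 20 transcription regulators and regional genes of epididymal identity, 12 were not called, 4 were higher and 4 lower, with a median of -0.01. Over all genes tested, 27.4% were higher and 25.5% lower, so the list as a whole did not stand out. LHX1, a homeobox gene of the duct, was read at 18.2, 17.4, 16.2, 17.8 and 17.6 CPM in fresh tissue and at 10.1, 5.99, 7.69, 11.3 and 8 CPM in vesicle culture (-1.01, SE 0.17, adjusted p 0.000158). HOXD8 fell from 150 to 190 CPM to 77.2 to 105 CPM (-1.02, SE 0.18). WNT4, a secreted signal of urogenital development, rose from 8.71 to 21.7 CPM to 84.2 to 116 CPM (2.75, SE 0.25), and BMP7, a growth factor of the same tissues, from 3.30 to 8.78 CPM to 22.2 to 37.1 CPM (2.29, SE 0.24).

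The machinery that folds and exports secretory proteins fell with them. Of 32 genes of endoplasmic reticulum (ER) folding and export, 25 were lower and 1 higher, with a median of -1.14, and their summed level went from 19700 to 21500 CPM to 7250 to 8520 CPM. SYVN1, the ubiquitin ligase that clears misfolded ER proteins, was read at 402, 383, 396, 368 and 366 CPM in fresh tissue and at 110, 89.3, 120, 84.5 and 98.2 CPM in vesicle culture. The fall was nearly the same in every pair (log2 fold change -1.93, SE 0.12, adjusted p 1.41e-08). SDF2L1, an ER chaperone partner, fell from 247 to 327 CPM to 11.9 to 19.3 CPM (-4.1, SE 0.32), and the disulphide isomerase PDIA4 from 695 to 845 CPM to 170 to 209 CPM (-2.02, SE 0.15). HSPA5, the ER's main chaperone BiP, fell from 2140 to 3200 CPM to 575 to 879 CPM (-1.61, SE 0.18). The 1 higher gene was CREB3L4, an ER-anchored transcription factor, at 5.15 to 7.87 CPM against 9.24 to 16.5 CPM (1, SE 0.29).

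Genes of the ATF4 pathway, which answers amino acid shortage, moved mostly up, 13 higher and 3 lower of 19 with a median of 1.09. ATF4 itself rose modestly, from 295, 280, 304, 451 and 253 CPM to 446, 534, 464, 433 and 461 CPM (0.56, SE 0.18, adjusted p 0.0159), and fresh 4 overlapped the vesicle cultures. TRIB3, a pseudokinase induced by ATF4, rose from at most 0.464 CPM to 11.7 to 19.5 CPM (6.27, SE 0.51), or 6.91 without fresh 5. The amino acid carrier SLC7A5 rose from 45.8 to 80.3 CPM to 154 to 277 CPM (1.96, SE 0.22). SLC7A11, the cystine carrier, fell from 109 to 193 CPM to 39.2 to 57.8 CPM (-1.61, SE 0.28), and PHGDH, the first enzyme of serine synthesis, from 128 to 199 CPM to 59.1 to 67.1 CPM (-1.41, SE 0.36).

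Heat shock proteins outside the ER rose in 10 of 13 cases and fell in none (1 lower with the replicate block), with a median of 0.63. CRYAB, a small heat shock protein, went from 11.3 to 17.1 CPM to 63.6 to 74.7 CPM (2.31, SE 0.14, adjusted p 1.34e-08). HSPB8 rose from 4.14 to 10.3 CPM to 38.3 to 75.8 CPM (2.97, SE 0.28), HSPH1 from 13.0 to 20.1 CPM to 50.3 to 80.9 CPM (1.95, SE 0.19) and the mitochondrial chaperonin HSPD1 from 126 to 147 CPM to 316 to 389 CPM (1.30, SE 0.11).

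Basal cell genes rose almost as a whole list. Of 17 tested, 16 were higher and 1 lower, with a median of 2.87, and their summed level went from 1210 to 1680 CPM in fresh tissue to 5230 to 9620 CPM in vesicle culture. KRT5, the basal keratin, was read at 333, 321, 197, 267 and 138 CPM in fresh tissue and at 3390, 803, 1650, 2070 and 1770 CPM in vesicle culture. Vesicle culture 2 was the lowest of its group and still above every fresh library (log2 fold change 2.94, SE 0.42, adjusted p 2.86e-05).

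SFN, the 14-3-3 sigma protein of stratified epithelium, rose from 3.35 to 7.62 CPM to 258 to 459 CPM (5.97, SE 0.52). TRIM29, a gene of basal keratinocytes, rose from 3.25 to 8.25 CPM to 56.1 to 129 CPM (4.26, SE 0.36), and the desmosomal cadherin DSG3 from 2.77 to 5.18 CPM to 45.7 to 92.6 CPM (4.02, SE 0.36). The list's 1 lower member was DST, a linker of keratin to hemidesmosomes that other cells also express, at 352 to 618 CPM against 145 to 305 CPM (-1.03, SE 0.24).

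Genes of squamous epithelium, which the duct does not normally form, were higher in 11 of 18 cases and lower in 1, with a median of 1.59. IVL, the envelope protein involucrin, went from 0.176, 0.241, 0.308, 0 and 0.928 CPM to 132, 65.5, 216, 287 and 88.4 CPM (8.89, SE 0.77, adjusted p 2.38e-07), or 9.65 without fresh 5. KRT16, a keratin of stressed epidermis, rose from 3.37 to 6.75 CPM to 136 to 314 CPM (5.74, SE 0.55). KRT6A, its partner keratin, rose from at most 0.750 CPM to 31.7 to 51.2 CPM (7.41, SE 0.78), or 8.24 without fresh 4. CSTA, a cystatin of the envelope, was lower (-1.63, adjusted p 0.0491), but the call was lost with the replicate block (adjusted p 0.0516) and the value was -0.84 (adjusted p 0.259) without fresh 1, which had the highest level. SERPINB13 had no count in any vesicle culture and was below the filter on low counts, and CRNN had no count in either group.

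The general epithelial genes were split. Of 22 tested, 12 were higher and 3 lower, with a median of 0.98. EPCAM had 542, 533, 467, 629 and 634 CPM in fresh tissue and 546, 289, 510, 577 and 450 CPM in vesicle culture (-0.24, SE 0.18, adjusted p 0.272). KRT7, a keratin of ductal epithelium, rose from 23.8 to 48.4 CPM to 303 to 579 CPM (3.59, SE 0.44), and KRT23 from 0.361 to 1.19 CPM to 41.1 to 76.5 CPM (6.32, SE 0.56). KRT8, the simple-epithelium keratin, had 367 to 507 CPM in fresh tissue and 415 to 775 CPM in vesicle culture. It missed the threshold (0.61, adjusted p 0.0566) and passed it with the replicate block (0.58, adjusted p 0.00803). KRT8 also passed unpaired in a fit of the 2 groups only (adjusted p 0.011) and without culture 3 (adjusted p 0.015). ESRP2, an epithelial splicing regulator, fell from 204 to 254 CPM to 63.4 to 105 CPM (-1.30, SE 0.17), and OVOL2, a repressor of mesenchymal genes, from 36.4 to 52.8 CPM to 9.59 to 16.8 CPM (-1.80, SE 0.19).

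Junction genes rose in 11 of 22 cases and fell in 2, with a median of 0.69, and with the replicate block 4 were lower. CLDN8, a barrier-forming claudin, fell from 264, 262, 326, 294 and 201 CPM to 24.0, 15.1, 26.6, 35.2 and 20 CPM (-3.48, SE 0.34, adjusted p 8.06e-07). CLDN2, a pore-forming claudin, had only 2 counts in all fresh libraries, both in fresh 3, and 28.7 to 84.7 CPM in vesicle culture, a ratio of 2290 with a 95% counting interval of 634 to 18900. Its fitted log2 fold change was 10.76, and 12.88 without fresh 3. CDH3, the placental cadherin typical of basal cells, rose from 9.43 to 15.6 CPM to 103 to 241 CPM (3.91, SE 0.27), and NECTIN1 from 16 to 24.6 CPM to 111 to 235 CPM (3.19, SE 0.28).

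Cell cycle genes were raised through DNA replication and mitosis. Of 28 mitosis genes, 26 were higher and 1 lower, with a median of 3.58, and of 24 replication genes 20 were higher and 2 lower, with a median of 1.83. MKI67, the proliferation antigen, was read at 0.922, 1.57, 3.04, 0.520 and 3.81 CPM in fresh tissue and at 54.6, 51.0, 63.9, 58.2 and 60.2 CPM in vesicle culture. The vesicle cultures lay close together and the fresh libraries did not (log2 fold change 4.86, SE 0.42, adjusted p 2.44e-07). TOP2A, the topoisomerase of dividing cells, rose from 1.39 to 5.15 CPM to 88.9 to 131 CPM (5.03, SE 0.30). KIF20A, a motor protein of cytokinesis, rose from 0.439 to 1.29 CPM to 24.1 to 30.1 CPM (5.14, SE 0.29), and PRC1, which bundles the spindle midzone, from 3.91 to 5.06 CPM to 72.9 to 87.5 CPM (4.1, SE 0.22).

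In the replication list, the helicase subunits MCM3, MCM4 and MCM6 rose by 3.52 (SE 0.23), 3.71 (SE 0.29) and 2.70 (SE 0.16) on the log2 scale. CDC45, which activates that helicase, rose from 0.346 to 0.748 CPM to 6.71 to 9.46 CPM (3.76, SE 0.29). GINS2, another part of the complex, fell from 14.8 to 49.4 CPM to 6.06 to 8.40 CPM (-2.04, SE 0.33), and the polymerase subunit POLA1 from 26.4 to 35.6 CPM to 20.9 to 24.2 CPM (-0.51, SE 0.13). BUB1B, a checkpoint kinase gene and the 1 lower mitosis gene, had 19.6 to 46.6 CPM in fresh tissue and 18.1 to 23.6 CPM in vesicle culture (-0.62, adjusted p 0.0433), and its call was lost on leaving out any of 7 libraries, with adjusted p up to 0.144 without fresh 3.

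Inhibitors of the cell cycle moved both ways, 5 higher and 3 lower of 15. CDKN1A, the p21 inhibitor, went from 1.62, 1.32, 2.99, 8.49 and 2.83 CPM to 124, 143, 175, 126 and 133 CPM (5.36, SE 0.49, adjusted p 4.57e-07), or 6 without fresh 4, the highest fresh library. CDKN2B rose from 2.95 to 17.1 CPM to 35.3 to 69.9 CPM (2.69, SE 0.44). CDKN1C, which encodes p57, fell from 2.46 to 4.27 CPM to 1.11 to 1.86 CPM (-1.14, SE 0.33), and the stress gene GADD45G from 16.3 to 23.8 CPM to 3.89 to 7.39 CPM (-1.86, SE 0.30).

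Targets of p53 were higher in 12 of 20 cases and lower in 3, with a median of 0.80. SERPINB5, the serpin maspin, which basal epithelium also makes, rose from 0.825 to 2.50 CPM to 49.1 to 89.5 CPM (5.59, SE 0.32, adjusted p 7.79e-09). AEN, a nuclease of apoptosis, rose from 5.55 to 8.51 CPM to 47.5 to 81.2 CPM (3.20, SE 0.19), and the death receptor FAS from 2.19 to 4.25 CPM to 15.1 to 23.0 CPM (2.49, SE 0.22). SESN1, a stress-induced regulator of growth, fell from 25.2 to 33.8 CPM to 10.7 to 17.6 CPM (-1, SE 0.17).

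Glycolytic and hypoxia response genes rose nearly throughout, 28 higher and 1 lower of 32 with a median of 2.13, and their sum went from 3280 to 3870 CPM to 11400 to 15500 CPM. GAPDH, often used as a reference gene, was read at 863, 879, 774, 778 and 675 CPM in fresh tissue and at 3750, 3110, 4100, 3210 and 3170 CPM in vesicle culture (log2 fold change 2.13, SE 0.14, adjusted p 1.59e-08). PGAM1, a mid-pathway mutase, rose from 71.7 to 93.5 CPM to 419 to 543 CPM (2.63, SE 0.12), and ENO1, the enolase, from 157 to 181 CPM to 706 to 931 CPM (2.37, SE 0.17). SLC2A1, the glucose carrier, rose from 40.6 to 47.5 CPM to 226 to 373 CPM (2.83, SE 0.16). ALDOC, the 1 lower member, changed little (-0.52, adjusted p 0.0249) and was not called without fresh 2, fresh 3 or vesicle culture 4, with adjusted p up to 0.0871.

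Nuclear genes of oxidative phosphorylation had a median of -0.01, with 4 higher and 8 lower of 27, or 7 higher and 11 lower with the replicate block. NDUFA1, a complex I subunit, fell from 82.6 to 134 CPM to 30.1 to 39.1 CPM (-1.44, SE 0.16), and NDUFA2 from 42.3 to 58.4 CPM to 17.5 to 25.7 CPM (-1.20, SE 0.18). SDHB, a complex II subunit, rose from 28.7 to 36.8 CPM to 43.7 to 51.0 CPM (0.56, SE 0.11). Beside these, the mitochondrial share of counts given above was lower in all vesicle cultures (6.40 to 7.26%) than in all fresh libraries (8.69 to 11.4%).

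NRF2 target genes, which protect against oxidants, were higher in 16 of 21 cases and lower in 2, with a median of 0.94. SRXN1, which repairs peroxiredoxins, rose from 1.76 to 7.38 CPM to 57.0 to 100 CPM (4.11, SE 0.34, adjusted p 1.59e-07). TXN, thioredoxin, rose from 78.4 to 110 CPM to 274 to 422 CPM (1.93, SE 0.15), and TKT, a pentose phosphate enzyme, from 51.3 to 71.1 CPM to 201 to 381 CPM (2.17, SE 0.19). HMOX1, haem oxygenase, rose from 1.23 to 6.46 CPM to 20.4 to 25.7 CPM (3.23, SE 0.39), or 3.95 without fresh 4. OSGIN1, a growth inhibitor gene induced by oxidants, fell from 23.3 to 36.5 CPM to 4.61 to 14.7 CPM (-1.63, SE 0.25).

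**Figure D3:**
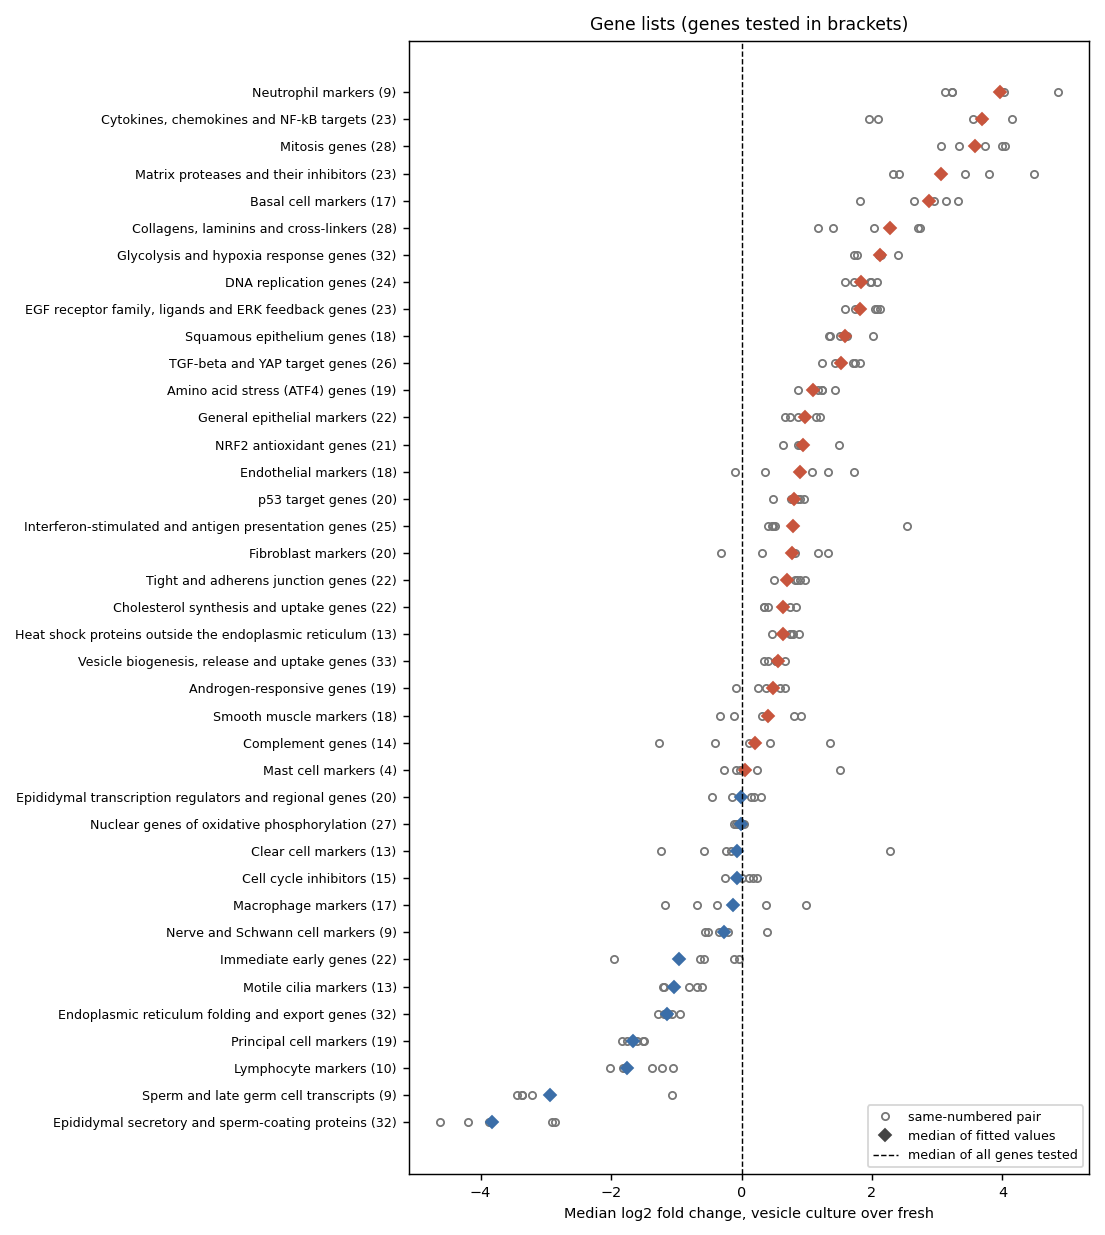
Median log2 fold change of vesicle culture over fresh tissue for 39 gene lists (diamonds), with the median in each same-numbered pair (open circles) and the median of all genes tested (dashed line at 0.01). Secretory, sperm, lymphocyte and principal cell lists lie lowest, from -3.83 to -1.67, and neutrophil, cytokine, mitosis and protease lists highest, from 3.06 to 3.97.

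Proteases that act on the matrix were among the largest rises. Of 23 tested proteases and inhibitors, 19 were higher and 2 lower, with a median of 3.06, and their sum went from 397 to 697 CPM to 6800 to 11800 CPM. MMP7, the matrilysin of glandular epithelium, was read at 5.13, 6.70, 5.19, 7.33 and 4.38 CPM in fresh tissue and at 4820, 4630, 3340, 9410 and 3180 CPM in vesicle culture (log2 fold change 9.79, SE 0.44, adjusted p 2.93e-09). Much of the list's sum in vesicle culture was thus MMP7. MMP13, a collagenase, went from 0.307, 0.522, 0, 0.404 and 1.60 CPM to 367, 1300, 796, 538 and 715 CPM (10.38, SE 0.77), or 11.22 without fresh 5.

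MMP12, the macrophage elastase, had no count in any fresh library and 15.4 to 172 CPM in vesicle culture, at least 2420-fold higher against 3 counts over the group. MMP1, the interstitial collagenase, likewise went from 0 to 2.53 to 53.8 CPM, at least 736-fold higher. The plasminogen activators PLAT and PLAU rose by 5.01 (SE 0.33) and 3.96 (SE 0.30) on the log2 scale. TIMP3, a matrix-bound inhibitor of these proteases, fell from 140 to 265 CPM to 30.3 to 102 CPM (-1.30, SE 0.35).

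Genes of the matrix itself were higher in 22 of 28 cases and lower in 1 (24 and 2 with the replicate block), with a median of 2.27. LAMC1, a laminin chain, rose from 43.8 to 85.2 CPM to 207 to 348 CPM (2.1, SE 0.22), LAMB1 from 55.5 to 105 CPM to 207 to 368 CPM (1.87, SE 0.26) and the collagen cross-linker LOXL2 from 0.825 to 2.29 CPM to 11.4 to 100 CPM (5.03, SE 0.68). LOXL3, its relative, fell from 58.1 to 101 CPM to 13.7 to 33.1 CPM (-1.72, SE 0.25). COL1A1, the main chain of fibrous collagen, was read at 241, 297, 135, 43.3 and 87.9 CPM in fresh tissue and at 632, 3230, 752, 226 and 890 CPM in vesicle culture. Vesicle culture 2 was far above the others and vesicle culture 4 overlapped the fresh libraries (2.83, SE 0.82, adjusted p 0.00905). Without vesicle culture 2 the value was 1.94 (adjusted p 0.0408).

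Of 20 fibroblast markers 7 were higher, 2 lower and 11 not called (10 higher and 4 lower with the replicate block), with a median of 0.77, and the part of connective tissue in the matrix result was not tested. Their sum was 702 to 2210 CPM in fresh tissue and 684 to 4480 CPM in vesicle culture, highest in vesicle culture 2, and none of the markers was at 0 in either group. PDGFRB, a receptor of fibroblasts and pericytes, rose from 17.3 to 36.2 CPM to 77.2 to 344 CPM (3.01, SE 0.45). FAP, the fibroblast activation protein, rose from 0.773 to 3.01 CPM to 10.3 to 77.8 CPM (4.23, SE 0.74), or 3.54 without vesicle culture 2. SCARA5, a ferritin receptor of resident fibroblasts, fell from 20.2 to 79.3 CPM to 0.971 to 3.26 CPM (-4.25, SE 0.52), and the small proteoglycan OGN from 49.1 to 204 CPM to 4.53 to 20.5 CPM (-3.01, SE 0.63).

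Smooth muscle markers summed to 1170 to 2840 CPM in fresh tissue and 1120 to 6560 CPM in vesicle culture, again highest in vesicle culture 2. Of 18, 5 were higher and none lower, with a median of 0.41, or 7 and 2 with the replicate block. TAGLN, an actin-binding protein, rose from 91.1 to 207 CPM to 215 to 1090 CPM (1.93, SE 0.41). ACTA2, the smooth muscle actin, had 162 to 400 CPM and 146 to 1010 CPM and was not called (0.65, adjusted p 0.272).

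Of 18 endothelial markers 9 were higher and none lower (10 and 1 with the replicate block), with a median of 0.90, and their sum went from 314 to 459 CPM to 503 to 1110 CPM. CDH5, the junction cadherin of vessels, rose from 15.8, 12, 8.10, 7.62 and 13.3 CPM to 46.2, 77.7, 66.7, 26.7 and 95.7 CPM (2.46, SE 0.38, adjusted p 7.24e-05). ANGPT2 and ESM1, both genes of sprouting vessels, rose from 1.23 to 3.09 CPM to 10.5 to 48.8 CPM (3.92, SE 0.45) and from at most 1.32 CPM to 15.7 to 67.4 CPM (5.64, SE 0.70).

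Growth factor signalling genes rose in parallel. Of 23 genes for EGF receptor family members, their ligands and feedback regulators of ERK, 20 were higher and 1 lower, with a median of 1.82. ETV4, a transcription factor induced by ERK, had counts only in fresh 5 among the fresh libraries, at 0.206 CPM, and 23.4, 16.1, 38.6, 15.9 and 22.7 CPM in vesicle culture (9.07, SE 0.70), or 12.05 without fresh 5. DUSP4, a phosphatase that acts on ERK, rose from 1.54 to 5.88 CPM to 56.4 to 117 CPM (4.88, SE 0.48), and SPRY4, an inhibitor of the pathway, from 3.12 to 4.59 CPM to 15 to 35.5 CPM (2.77, SE 0.26). EGF, the ligand itself, fell from 14.2 to 41.5 CPM to 1.93 to 4.45 CPM (-3.27, SE 0.43).

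Targets of TGF-beta and YAP were higher in 18 of 26 cases and lower in 3, with a median of 1.52. PMEPA1, a feedback inhibitor of TGF-beta, was read at 11.6, 7.06, 8.80, 5.02 and 8.25 CPM in fresh tissue and at 248, 285, 277, 201 and 273 CPM in vesicle culture (4.98, SE 0.28, adjusted p 6.91e-09). INHBA, an activin subunit, rose from 2.01 to 4.37 CPM to 55.9 to 268 CPM (5.49, SE 0.55), and SMAD7 from 3.08 to 4.30 CPM to 20.3 to 31.7 CPM (2.74, SE 0.25). ANKRD1, a target of YAP, had no count in fresh tissue and 6.85 to 27.1 CPM in vesicle culture, at least 486-fold higher. The other way went SKI, a repressor of SMAD proteins, from 152 to 205 CPM to 93.0 to 106 CPM (-0.79, SE 0.15), and CCN2 was also lower (-0.60, adjusted p 0.02), with overlapping groups and a call lost without fresh 3 (adjusted p 0.0503).

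Cytokine and NF-kB genes rose in 21 of 23 cases and fell in none, with a median of 3.69. TNFAIP2 was read at 3.29, 2.65, 1.41, 2.77 and 3.09 CPM in fresh tissue and at 56.3, 129, 58.5, 77.9 and 50.9 CPM in vesicle culture (4.82, SE 0.34, adjusted p 4.05e-08). NFKB1, a subunit of NF-kB, rose from 28.7 to 32.4 CPM to 104 to 152 CPM (2.08, SE 0.15), and the adhesion receptor ICAM1 from 15.1 to 41.2 CPM to 129 to 224 CPM (2.86, SE 0.31). IL11, a cytokine of stromal cells, rose from at most 0.258 CPM to 19.5, 115, 33.5, 20.4 and 40.9 CPM (8.5, SE 0.86), or 7.81 without vesicle culture 2.

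IL6 had counts in only 1 fresh library, fresh 4 at 2.08 CPM, and 7.17, 220, 13.9, 15.9 and 37.7 CPM in vesicle culture (7.31, SE 1.49, adjusted p 0.000756). Leaving out 1 library moved the value: it was 13.39 without fresh 4 and 5.62 without vesicle culture 2, and limma-voom gave an adjusted p of 0.0661. PTGS2, the inducible cyclooxygenase, went from 3.20, 1.28, 1.5, 7.85 and 0.876 CPM to 35.5, 167, 92.9, 30.6 and 99.9 CPM (4.87, SE 0.72), or 5.63 without fresh 4.

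Immediate early genes, which are induced within minutes of a stimulus, fell on balance, 10 lower and 5 higher of 22 with a median of -0.96. Their sum ranged from 1370 to 8140 CPM in fresh tissue, highest in fresh 4, and only from 1400 to 1790 CPM in vesicle culture. FOS was read at 671, 526, 541, 1390 and 217 CPM in fresh tissue and at 122, 60.9, 125, 110 and 74.4 CPM in vesicle culture (-2.76, SE 0.39, adjusted p 2.87e-05). FOSB fell from 70.7 to 1100 CPM to 7.72 to 18.8 CPM (-4.89, SE 0.66), or -4 without fresh 4, and EGR3 from 27.9 to 142 CPM to 1.95 to 4.92 CPM (-4.1, SE 0.47), or -3.38 without fresh 4. FOSL2, a partner of FOS that lasts longer after induction, rose from 83.3 to 185 CPM to 351 to 483 CPM (1.85, SE 0.23), and MYC from 14.8 to 49.0 CPM to 75.3 to 90.7 CPM (1.74, SE 0.26).

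S100A9, a subunit of the antimicrobial protein calprotectin, had no count in any fresh library and 448, 178, 360, 651 and 189 CPM in vesicle culture, at least 13700-fold higher. S100A8, its partner, was read at 0, 0, 0, 0.231 and 0.103 CPM in fresh tissue and at 392, 458, 721, 685 and 247 CPM in vesicle culture (12.97, SE 0.75, adjusted p 7.79e-09), or 14.13 without fresh 4. DEFB1, a beta-defensin of epithelium, rose from at most 0.321 CPM to 289 to 630 CPM (11.78, SE 0.70), or 12.87 without fresh 2.

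TCN1, a vitamin B12 carrier of secretions, had no count in fresh tissue and 84.0, 84.3, 96.5, 303 and 21.6 CPM in vesicle culture, at least 4430-fold higher. PLET1, a surface protein of epithelial progenitors, rose from at most 0.412 CPM to 231 to 517 CPM (11.21, SE 0.72), or 12.25 without fresh 5. SPINK4, a protease inhibitor of the gut, rose from at most 0.231 CPM to 57.5, 19.2, 89.8, 221 and 81.9 CPM (10.02, SE 0.89), or 9.40 without vesicle culture 4.

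Neutrophils also carry calprotectin, and their part in these values was not tested. Of 13 matched neutrophil markers 9 passed the filter, and of these 6 were higher and 1 lower, with a median of 3.97, and their sum went from 1340 to 2880 CPM to 5410 to 12300 CPM. Most of that sum was LTF, lactoferrin, which epithelium also secretes, at 1330 to 2860 CPM in fresh tissue and 4110 to 10800 CPM in vesicle culture (1.61, SE 0.34). CXCR2, a chemokine receptor, rose from 0.281 to 1.19 CPM to 5.07 to 11.8 CPM (3.97, SE 0.41), or 4.57 without fresh 3. MMP9 rose from 2.19 to 8.35 CPM to 65.8 to 202 CPM (4.54, SE 0.48). CAMP, the granule peptide cathelicidin, fell from 4.33 to 7.73 CPM to 0.825 to 2.35 CPM (-1.93, SE 0.37). The defining neutrophil gene CSF3R had no count in any vesicle culture, PGLYRP1 had none either, and MPO and MMP8 were below the filter on low counts.

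A set of genes was detected in 1 group only. With 0 counts in all fresh libraries and 10 or more in each vesicle culture there were 38 genes, 23 of them with a symbol, and in reverse 40 genes, 14 with a symbol. Beside S100A9, TCN1, MMP12, MMP1 and ANKRD1, the first set held KRT4, a keratin of mucosal squamous epithelium, at 85.3, 0.825, 7.57, 11.8 and 12.6 CPM, at least 938-fold higher. Vesicle culture 1 was the highest and vesicle culture 2 the lowest, and limma-voom gave an adjusted p of 0.0706. In the reverse set, ATP1B4, a pump subunit relative, had 4.26 to 10.1 CPM in fresh tissue (at least 267-fold lower), ZP2, a zona pellucida gene, 3.23 to 8.45 CPM (at least 210-fold lower) and LRRC7 2.21 to 6.06 CPM (at least 158-fold lower). SPINT4, a Kunitz-type inhibitor gene, had 3.69, 1.4, 36.2, 1.27 and 8.56 CPM, highest in fresh 3, and was at least 418-fold lower, with a fitted log2 fold change of -10.84 that went to -9.39 without fresh 3.

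Immune cell markers had no common direction. Of 17 macrophage markers 4 were higher and 2 lower (4 and 4 with the replicate block), with a median of -0.13 and a sum of 64.5 to 106 CPM in fresh tissue and 88.6 to 198 CPM in vesicle culture. CD14, a receptor for bacterial lipid, rose from 1.06 to 5.75 CPM to 22.7 to 42.5 CPM (3.54, SE 0.40), and CD68, a lysosomal protein, from at most 0.635 CPM to 6.53 to 9.35 CPM (4.35, SE 0.54). CSF1R, the growth factor receptor that defines macrophages, fell from 10.7 to 18.2 CPM to 2.60 to 10.8 CPM (-1.16, SE 0.38), and MARCO was at 0 in both groups.

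Of 16 matched lymphocyte markers 10 passed the filter, and these were lower in 4 cases and higher in none, with a median of -1.75 and a sum of 22.5 to 48.6 CPM in fresh tissue against 11.6 to 26.1 CPM in vesicle culture. CD8A fell from 4.43, 5.42, 1.98, 1.56 and 6.49 CPM to 0, 0.217, 0.202, 0.197 and 0.282 CPM (-4.47, SE 0.95, adjusted p 0.00103). GZMA, a granule protease of killer cells, fell from 2.77 to 4.52 CPM to at most 0.499 CPM (-4.07, SE 0.60), or -4.78 without vesicle culture 1. CD3G, a chain of the T cell receptor complex, was called (-1.90, adjusted p 0.0327) but not without any of 5 libraries, with adjusted p up to 0.0891 without fresh 5. Of 4 mast cell markers none was called, or 1 higher with the replicate block, and erythroid genes were all below the filter.

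Interferon-stimulated and antigen presentation genes were higher in 9 of 25 cases and lower in none, with a median of 0.79. OAS2, a sensor of viral RNA, was read at 30.3, 9.03, 15.1, 9 and 24.6 CPM in fresh tissue and at 122, 122, 115, 138 and 129 CPM in vesicle culture (2.83, SE 0.38, adjusted p 1.81e-05). SAMHD1 rose from 2.42 to 8.92 CPM to 36.7 to 72.0 CPM (3.22, SE 0.56), and the proteasome subunit PSMB8 from 4.67 to 12.4 CPM to 28.0 to 44.1 CPM (2.06, SE 0.27). Complement genes were 5 higher and 3 lower of 14, with a median of 0.20. CFI, which cleaves activated complement, rose from 11 to 19.6 CPM to 164 to 317 CPM (3.97, SE 0.26), and CD59, the membrane protector of the final complex, fell from 528 to 710 CPM to 246 to 406 CPM (-1.07, SE 0.17).

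Of 15 matched sperm and late germ cell transcripts 9 passed the filter, of which 8 were lower and none higher (7 and 1 with the replicate block), with a median of -2.93 and a sum of 64.6 to 132 CPM in fresh tissue and 45.3 to 56.4 CPM in vesicle culture. ROPN1, a sheath protein of the sperm tail, fell from 24.0, 27.2, 21.7, 19.2 and 29.6 CPM to 5.14, 2.56, 3.40, 1.69 and 3.10 CPM (-2.93, SE 0.34, adjusted p 3.68e-06), and OAZ3, an antizyme of the late germ line, from 4.87 to 14.6 CPM to 1.78 to 3.49 CPM (-1.77, SE 0.32). Of 13 cilia markers 6 were lower and 1 higher, with a median of -1.04. FOXJ1, the regulator of motile cilia, fell from 7.26 to 21.9 CPM to 2.63 to 6.09 CPM (-1.64, SE 0.29), and the radial spoke gene RSPH1 from 12.8 to 21.2 CPM to 2.60 to 5.22 CPM (-2, SE 0.35). Nerve and Schwann cell markers were 1 higher and 2 lower of 9, with NCAM1, an adhesion molecule, at 21.5 to 53.9 CPM against 4.96 to 11.8 CPM (-2.05, SE 0.30).

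**Figure D4:**
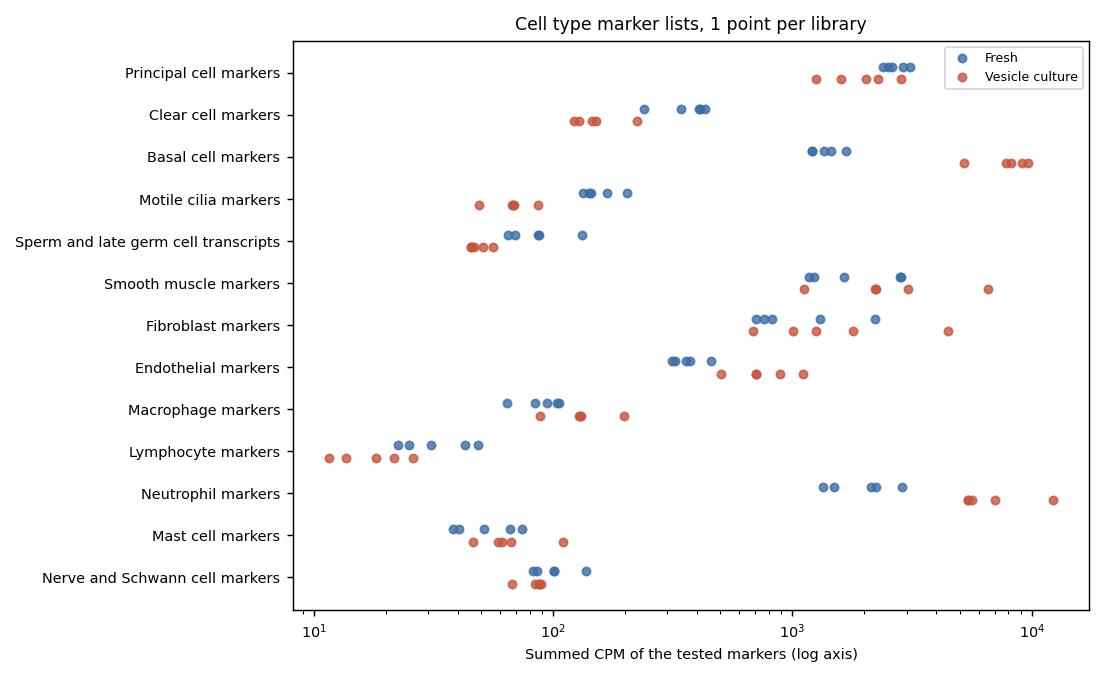
Summed CPM of the tested markers of 13 cell types in each fresh library and each vesicle culture (log axis, 1 point per library). Basal cell (1210 to 1680 against 5230 to 9620 CPM), neutrophil and endothelial markers are separated upward and motile cilia, clear cell and sperm markers downward, while principal cell, fibroblast, smooth muscle, macrophage, lymphocyte, mast and nerve markers overlap.

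Genes that handle vesicles and cholesterol were examined because the explants were given vesicles. Of 33 genes of vesicle formation, release and uptake, 17 were higher and 4 lower, with a median of 0.56. ANXA2, a membrane-binding annexin, rose from 224, 166, 184, 155 and 209 CPM to 1720, 1320, 1660, 1750 and 1550 CPM (3.09, SE 0.18, adjusted p 7.99e-09), and ITGB1, an integrin chain, from 131 to 270 CPM to 682 to 1080 CPM (2.17, SE 0.22). The tetraspanin CD9, a common vesicle marker, rose from 185 to 241 CPM to 266 to 368 CPM (0.59, SE 0.15). CD63, another, had 539 to 783 CPM against 375 to 522 CPM and missed the threshold (-0.45, adjusted p 0.183). It passed with the replicate block (-0.45, adjusted p 0.00864). The pairing was not needed for this, since CD63 also passed unpaired in a fit of the 2 groups only (adjusted p 0.0111) and without culture 3 (adjusted p 0.00789). RAB27A, a GTPase of vesicle release, fell from 23.7 to 71.8 CPM to 11.2 to 17.4 CPM (-1.76, SE 0.30).

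Cholesterol genes were higher in 10 of 22 cases and lower in 3 (5 with the replicate block), with a median of 0.64. FDFT1, which makes squalene, fell from 570 to 711 CPM to 274 to 340 CPM (-1.07, SE 0.13).

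The 5 pairs did not respond alike for every gene. Among called genes of sufficient level, MUC4, ADAMTS4, FADS2, AGT and PTGS2 had the widest spread of the same-numbered differences. MUC4, a membrane mucin, was read at 0.702, 0.602, 12.1, 0 and 26.7 CPM in fresh tissue and at 65.3, 16.6, 79.1, 120 and 97.6 CPM in vesicle culture, so that the log2 difference ran from 1.86 in pair 5 to 10.39 in pair 4. Its fitted value was 3.24, or 4.33 with the replicate block and 4.48 without fresh 5. ADAMTS4, an aggrecan-cleaving protease, was high in fresh 4 alone (56.2 CPM against at most 3.34 in the other fresh libraries), and pair 4 was the only one in which it was lower in vesicle culture, by -0.71; the fitted value was 3.01, or 4.60 with the block and 5.47 without fresh 4.

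FADS2, a fatty acid desaturase, was high in fresh 3 alone (42.9 CPM against at most 3.95), and pair 3 alone differed by -0.61. Its fitted value of 2.03 had an adjusted p of 0.0498, and the call did not hold under many alternatives. It was lost with relative log expression scaling (adjusted p 0.0558), upper-quartile scaling (0.0637), no filter (0.0516), the stricter filter (0.0531) and the 2 groups only (0.0802). It was also lost on leaving out fresh 1, 2, 4 or 5 or vesicle culture 1, 2, 3 or 5, with adjusted p from 0.0584 to 0.117. The value was 3.39 with the block (adjusted p 0.0148) and 4.21 without fresh 3. AGT, angiotensinogen, ran from 1.5 to 51.6 CPM in fresh tissue and from 83.5 to 203 CPM in vesicle culture (3.28, or 3.95 with the block and 4.44 without fresh 3). At the other end, PGAM1 differed by 2.49 to 2.83 and SYVN1 by -2.12 to -1.73 over the 5 pairs.

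**Figure D5:**
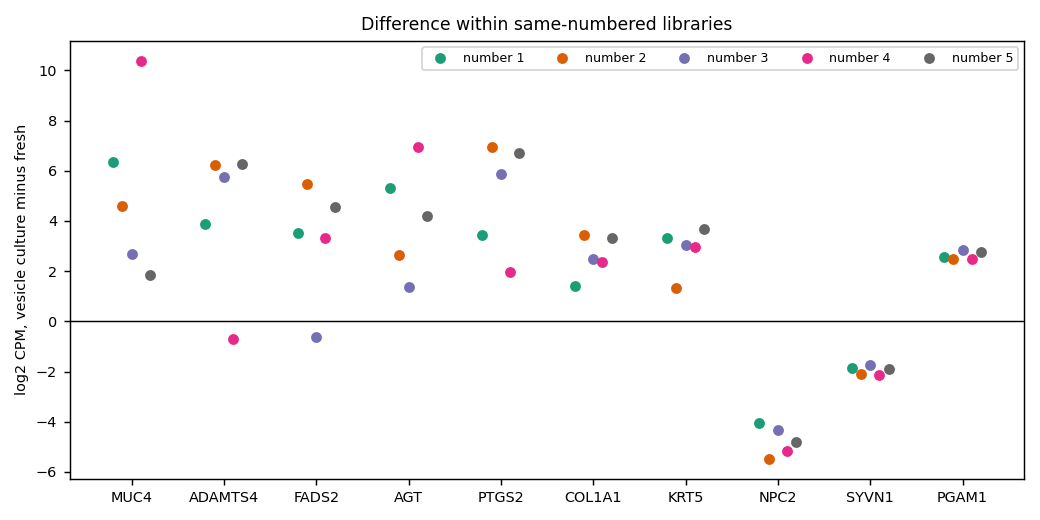
Difference in log2 CPM between vesicle culture and fresh tissue within each same-numbered pair (1 point per pair, line at 0) for the 5 genes with the widest spread and for 5 others. MUC4 spans 1.86 to 10.39 and ADAMTS4 drops to -0.71 in pair 4, while SYVN1 and PGAM1 stay within narrow ranges.

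The vesicle cultures were also tested directly against explants cultured alone, which asks what the vesicles added to culture. No gene was called (0% of 18038) in edgeR's quasi-likelihood test, where 183 genes had an unadjusted p under 0.05 and the smallest adjusted p was 1.0. DESeq2 called 0 (269 at an unadjusted p under 0.05), limma-voom 0 (237) and the replicate block 0 (266). All of these counts were under the 1 in 20 genes that such a threshold would pass by chance if the p-values were exact. The p-values of these tests thus ran large, for a reason that was not tested. The lack of calls therefore cannot show that the vesicles added nothing. How small an effect of the vesicles these tests could find was not tested. The secretory list, which lay at -3.83 against fresh tissue, had a median of 0.01 against culture alone, basal markers -0.08, mitosis genes 0.09, proteases 0.05 and ER folding genes 0.03. Over the 39 lists this median ran from -0.39 for macrophage markers to 0.31 for sperm transcripts, with interferon genes at -0.24. Glycolysis genes were at -0.36, and their sum was lower with vesicles in each same-numbered pair. It was 11400 to 15500 CPM against 13200 to 22500 CPM, so that the ranges overlapped. The highest of these sums, 22500 CPM, was that of culture 3, the library with few mitochondrial counts. In the plot of secretory shares the 2 cultures lie side by side, with CLU at 2.43% ± 0.754 (SD, n = 5) in culture alone.

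Genes with small unadjusted p in that test are given as values only. RNASE10 was at 3.02 ± 0.838 CPM (SD, n = 5) in culture alone and 5.07 ± 1.05 CPM (SD, n = 5) in vesicle culture, a log2 difference of 0.74 (SE 0.20, adjusted p 1.0), against 62.0 to 74.6 CPM in fresh tissue. PENK, the enkephalin precursor, was at 23.9 ± 10.4 CPM in culture alone and 12.1 ± 3.11 CPM in vesicle culture (-0.98, SE 0.28, adjusted p 1.0), and at most 0.289 CPM in fresh tissue. CD1H11orf71, TCAP, CARD8, ENKD1 and TMEM130 followed, with log2 differences of -0.81, -1.33, 2.46, -0.76 and -0.98. These genes differed between vesicle culture and fresh tissue, PENK upward and the rest downward.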

How the data were processed

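RNA-seq was run on 15 libraries of cat corpus epididymis, 5 per group. The authors deposited a table of unnormalised counts for 38995 genes. Total RNA went into a stranded mRNA library kit, per the labels' protocols. StringTie 2.1.3b, Bowtie2 2.3.4.1, HISAT2 2.1.0 and Trimmomatic 0.38 are listed, with no roles, in the submitters' processing notes. Not given in the sources used here are the genome build, annotation, counting program, strand setting and treatment of reads that match several genes, so genes overlapping on opposite strands may share reads. All identifiers matched a RefSeq gene table (F.catus_Fca126_mat1.0), used for names only.

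Genes were filtered with filterByExpr at its defaults (minimum count 10, minimum total 15), which kept 18038 and left out 20957, scaled by TMM and tested 2-sided with the quasi-likelihood functions of edgeR 4.0.16 (R 4.3.3). All 15 libraries shared 1 fit with no term but the group and 12 residual degrees of freedom. Genes with an adjusted p below 0.05 (Benjamini-Hochberg, all genes tested) were called. A bracketed value after a gene's levels is its log2 fold change, vesicle culture over fresh, with an approximate standard error (SE). Every SE was worked back from the size of the change and the statistic of the quasi-likelihood test. It was not taken from the fit directly, so it is a rough guide, above all for genes near 0 in a group. The fit adds a prior count, so folds of genes near 0 depend on it. A fold against a group at 0 was taken against 3 counts over that group and is a lower bound. For a group with 1 to 3 counts, the ratio has an exact 95% binomial interval. Such bounds and intervals cover counting error only. Total counts of 17308832 to 27420218 limit precision mainly for genes under 1 CPM. The test was tried on simulated counts with no replicate effect and far fewer changed genes than here, so that trial is no check of it for these data.

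Same-numbered vesicle and fresh libraries deviated together from their group means (correlations 0.24, 0.36, 0.30, 0.35 and 0.30, each highest with its own number), so the numbers pair the samples. The paired fit, with the replicate number as a block, is given beside a result where it changes a call or moves a count by over 1.5 times.

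The members and the 40 gene lists (878 symbols, 832 matched) were chosen with earlier results of these data known. Lists are described by counts and medians, without a test, and medians did not change when genes at 0 in a group were set to their bound. Named genes are the 8 largest rises and falls, up to 4 called members per list by adjusted p and 2 against its majority, up to 6 genes detected in 1 group per direction, the 5 with the widest spread of pairs, the 8 smallest p against culture alone, and 23 fixed genes. Not all are printed, and some genes are not reported here. GGT1, CCN2, LTF and list markers given as at 0 or below the filter were named after their values were seen. Alternatives were DESeq2 1.42.0, limma-voom (limma 3.58.1), other scalings and filters, 2 groups only, the block, and leaving out each library. No sequence was used.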

Additional observations from a re-analysis of the deposited data

Results flagged for a closer look

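Libraries of 1 group were compared with each other for 462 values, and a library was set apart where its gap to the nearest of the others exceeded 0.71 of the group's range. For independent, normally spread values chance gives this in about 1 in 20 checks, and it occurred in 35. The checks included genes named for their wide spread and genes with no count in the other libraries. That rate is therefore no yardstick for the 35. Values are log2 CPM, or the mean log2 CPM of a list, unless said otherwise.

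Fresh 4 was set apart for 9 values, all high. Against the range of the other 4 fresh libraries, its cell cycle inhibitors were at 4.62 (3.91 to 3.93), its heat shock genes at 6.97 (6.40 to 6.51) and its cytokine and NF-kB genes at 1.97 (0.60 to 0.86). Of single genes, ADAMTS4 was at 5.82 (0.80 to 1.78), EGR3 at 7.15 (4.81 to 5.47), HMOX1 at 2.71 (0.40 to 0.88), HSPA5 at 11.65 (11.06 to 11.20), SPINK14 at 8.10 (6.23 to 6.60) and IL6 at 1.12 (-3.49 in each, which is a count of 0).

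In the other fresh libraries, the clear cell markers of fresh 1 were at -0.13 (1.46 to 2.04) and its PRC1 at 2.00 (2.29 to 2.36). Fresh 2 had NDUFA1 at 7.07 (6.37 to 6.57) and no count of CD68, at -3.49 (-1.33 to -0.47). Fresh 3 had FADS2 at 5.42 (0.75 to 2.01), RAB27A at 4.57 (5.71 to 6.17), TNFAIP2 at 0.58 (1.45 to 1.76) and CLDN2 at -2.50 (-3.49 in the rest). The 10 most abundant genes took 10.6% of its counts (12.6 to 13.1%). Fresh 5 had ETV4 at -1.76 (-3.49 in the rest).

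Among vesicle cultures, library 2 had the lowest basal markers, at 7.42 (7.96 to 8.10), and CDH3 at 6.69 (7.69 to 7.91), with identity regulators at 3.81 (3.47 to 3.56) and HSPD1 at 8.61 (8.30 to 8.34). Library 4 had CLDN2 at 6.41 (4.85 to 5.09), HOXD8 at 6.72 (6.27 to 6.39), HSPA5 at 9.17 (9.62 to 9.78), TIMP3 at 4.93 (6.28 to 6.67) and 16.9% of its counts on the 10 most abundant genes (11.8 to 12.7%). Library 3 had PLET1 at 9.01 (7.85 to 8.07), CCN2 at 4.84 (5.37 to 5.53), RAB27A at 3.49 (4.01 to 4.13), and SPINK14 at -2.25 (-3.49 in the rest). Library 5 had SDF2L1 at 3.58 (4.16 to 4.27) and SMAD7 at 4.99 (4.35 to 4.43), and library 1 had no count of CD8A, at -3.49 (-1.81 to -1.43).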

How the results depend on the processing

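The count of genes called in vesicle culture against fresh tissue was 9549, and over 20 alternatives it stayed within 1.5 times that number, in both directions and for changes over 2-fold. It was 8833 to 9125 when a fresh library or vesicle culture was left out, 11658 without culture 3, 10141 with DESeq2, 11789 with limma-voom, 9509 and 9572 with relative log expression and upper-quartile scaling, 8873 with the stricter filter, 9871 with none and 11163 with the 2 groups only. With the replicate block 11656 genes were called in the paired fit of 10 libraries (17493 tested) and 10283 in that of 15. Beyond CSTA, KRT8 and CD63 and the list counts given beside their results, the block changed no call among the 188 genes named. Calls of CSTA, KRT8 and CD63 also changed without pairing in the 2 groups only, and those of KRT8 and CD63 without culture 3. Against culture alone, 0 genes were called in all 19 alternatives. Upper-quartile scaling shifted the median of all genes by -0.11, to -0.09, and 45.8% of its calls were higher, against 51.8%; no called gene among those named reversed under any alternative, and 9 lost the call under at least 1. Of 39 list medians, 6 moved by an SD of the pair medians or more, and 1 reversed: nerve markers, from -0.27 to 0.13 without fresh 2 (-0.48 without fresh 5). The cause was not tested. Levels under about 1 CPM rest on few counts.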
